A study of Rattus norvegicus with 12 samples.

Results

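The circadian clock genes Arntl, Clock, Per1, Per2, Per3, Cry2, Nr1d1, Nr1d2, Rora and Dbp were taken by symbol from a table of 16898 rat genes. All 10 symbols were found, each in 1 row. Their levels were compared in input RNA of heart tissue from Sprague Dawley rats, an outbred laboratory strain, with 3 libraries from postnatal day 0 and 3 from an older age. For the latter the sample labels say day 7 whereas the column headers read 10D, so these are called older hearts and no exact age is claimed. The labels name no treatment or genotype in either group, and they do not say how many animals made up a library. They also give no time of day of collection, so its part in the values below was not tested. The series holds 12 samples, and its 6 pull-down samples, made with an antibody to the RNA mark m6A, were not analysed here.

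The clock is a feedback loop in nearly every cell. The proteins of Arntl (also called BMAL1) and Clock pair up and switch on genes that carry an E-box, among them the Per, Cry and Nr1d genes and Dbp. PER and CRY proteins then block that pair, the NR1D proteins (REV-ERB) repress Arntl through a DNA element called a RORE, and RORA activates Arntl through the same element. DBP acts on outputs through the D-box. In rodents the clocks of peripheral tissues, the heart among them, gain their daily rhythm after birth.

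Promoters from RefSeq (rat build GRCr8) were matched for all 10 genes, Arntl under the symbol Bmal1, as 12 windows of 300 bases that run from 250 bases before to 50 bases after a start. Those of Rora and Per2 are shown because these genes differed with age, that of Arntl because it is the gene that RORA and NR1D1 act on, and the downstream window of Nr1d1 because it holds an E-box. Capitals mark a motif match on either strand. The windows are chr8:78816005-78816304 (plus strand) for Rora, chr9:99496944-99497243 (minus strand) for Per2, chr1:176766078-176766377 (plus strand) for Arntl and chr10:84229405-84229704 (minus strand) for Nr1d1.
Rora: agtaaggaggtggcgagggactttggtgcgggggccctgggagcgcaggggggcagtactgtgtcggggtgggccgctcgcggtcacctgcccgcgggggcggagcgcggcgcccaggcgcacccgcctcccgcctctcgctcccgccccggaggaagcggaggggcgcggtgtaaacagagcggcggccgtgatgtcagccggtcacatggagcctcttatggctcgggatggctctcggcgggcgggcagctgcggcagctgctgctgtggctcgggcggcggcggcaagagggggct
Per2: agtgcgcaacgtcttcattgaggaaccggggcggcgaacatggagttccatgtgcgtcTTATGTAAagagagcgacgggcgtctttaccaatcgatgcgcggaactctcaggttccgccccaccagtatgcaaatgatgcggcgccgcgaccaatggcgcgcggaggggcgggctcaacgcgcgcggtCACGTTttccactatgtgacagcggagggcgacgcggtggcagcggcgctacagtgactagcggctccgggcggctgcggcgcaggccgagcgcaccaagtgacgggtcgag
Arntl: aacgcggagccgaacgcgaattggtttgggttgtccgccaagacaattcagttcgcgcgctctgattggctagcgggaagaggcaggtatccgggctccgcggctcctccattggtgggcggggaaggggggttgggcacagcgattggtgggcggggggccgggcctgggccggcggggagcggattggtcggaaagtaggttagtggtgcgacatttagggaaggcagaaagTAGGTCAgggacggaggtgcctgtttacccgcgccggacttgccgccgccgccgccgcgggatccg
Nr1d1: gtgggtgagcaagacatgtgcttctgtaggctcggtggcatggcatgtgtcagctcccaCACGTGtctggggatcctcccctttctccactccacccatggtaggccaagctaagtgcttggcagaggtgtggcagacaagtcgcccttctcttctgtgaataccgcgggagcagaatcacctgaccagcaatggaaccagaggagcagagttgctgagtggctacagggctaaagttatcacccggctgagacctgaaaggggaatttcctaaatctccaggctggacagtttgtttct
Positions are counted so that -1 is the last base before the start. The RORE core TAGGTCA lay at -16 in the Arntl window, 1 of the 12 windows, and 2.63% of all 33469 promoter windows hold it on either strand. The Per2 window held the D-box TTATGTAA at -192 (1 of 12 windows, 0.893% of all) and the E-box variant CACGTT at -62. That variant was also found on the opposite strand in Cry2 and in the upstream window of Nr1d1, so in 3 of 12 windows against 4.83% of all. The E-box CACGTG, which reads the same on both strands, lay at -191 in the downstream window of Nr1d1 (1 of 12 windows, 6.42% of all). No window of the 10 genes held TTATGCAA (0.863% of all windows), TGGGTCA (4.09%) or the cAMP response element TGACGTCA (1.83%), and no matches overlapped. A match describes the letters of these windows only.

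Levels are given in FPKM, reads scaled by gene length and library total. Library totals were 13489816 to 16297533 reads, and the 10 genes held between 137 reads (Arntl, day 0 library 2) and 3077 reads (Per1, day 0 library 3) in a library. Heart muscle markers were all found, with a summed level of 12012 to 13693 FPKM for 5 genes at day 0 and 14571 to 16199 FPKM in the older hearts. Of these genes only Myh6 was called (higher, log2 fold change 0.75). Actn2 (0.08), Ryr2 (0.15), Tnnt2 (-0.11) and Pln (-0.19) were not, so the rise of the sum is not shared by all. Of 5 fibroblast markers 4 rose, and all 5 summed to 332 to 522 FPKM at day 0 and 776 to 861 FPKM in the older hearts. Of 4 endothelial markers found 1 rose (Cdh5, log2 fold change 0.81), and their sum went from 171 to 194 FPKM to 246 to 269 FPKM. Of 5 smooth muscle and pericyte markers, Acta2 (-1.68) and Cnn1 (-2.91) fell and Rgs5 (1.85) rose, and 1 of 2 brown fat markers found rose, Cidea (1.10). In tissue RNA, fewer cells of a type and less RNA per cell cannot be told apart. Day 0 library 3 stood apart in the sum of 5 lung markers, 43.7 FPKM against 0.351 to 3.65 FPKM in the other 5 libraries. Of these markers Ager alone did not stand apart (3.78 FPKM there, 3.65 FPKM in older library 2). The same library stood apart in the skeletal muscle markers Tnnt3 (57.6 FPKM, elsewhere at most 4.56 FPKM) and Myh1 (6.55 FPKM, elsewhere at most 0.375 FPKM). Acta1 was 1977 FPKM there and 1736 and 1782 FPKM in the other day 0 libraries. The log2 fold changes of the clock genes are therefore also given without day 0 library 3.

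Of the 10 clock genes, Rora rose and Per2 fell in the older hearts, and 8 did not pass the threshold. Each gene's log2(FPKM + 1) values were compared between ages by limma over the 13117 genes that averaged 1 FPKM or more, at a Benjamini-Hochberg adjusted p under 0.05. All 10 clock genes passed that filter. Over all genes tested 3.52% were called higher and 5.73% lower (9.26% in all), so with 10 genes a count of 1 in each direction stands close to this background. The median log2 fold change (older minus day 0) of the 10 was 0.05 and that of all genes tested -0.11. At an unadjusted p under 0.05 the fit gave 2 of the 10 as well, against 25.9% of all genes tested (9.48% with a positive and 16.4% with a negative change). The ages did not overlap in 3 of the 10 genes, Rora, Per2 and Arntl, against 32.5% of all genes tested (12.2% with older hearts higher, as for Rora and Arntl, and 20.3% with older hearts lower, as for Per2). For each of these 3 the exact two-sided permutation test over libraries gave p = 0.1, the smallest that 3 against 3 libraries allow.

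**Figure D1:**
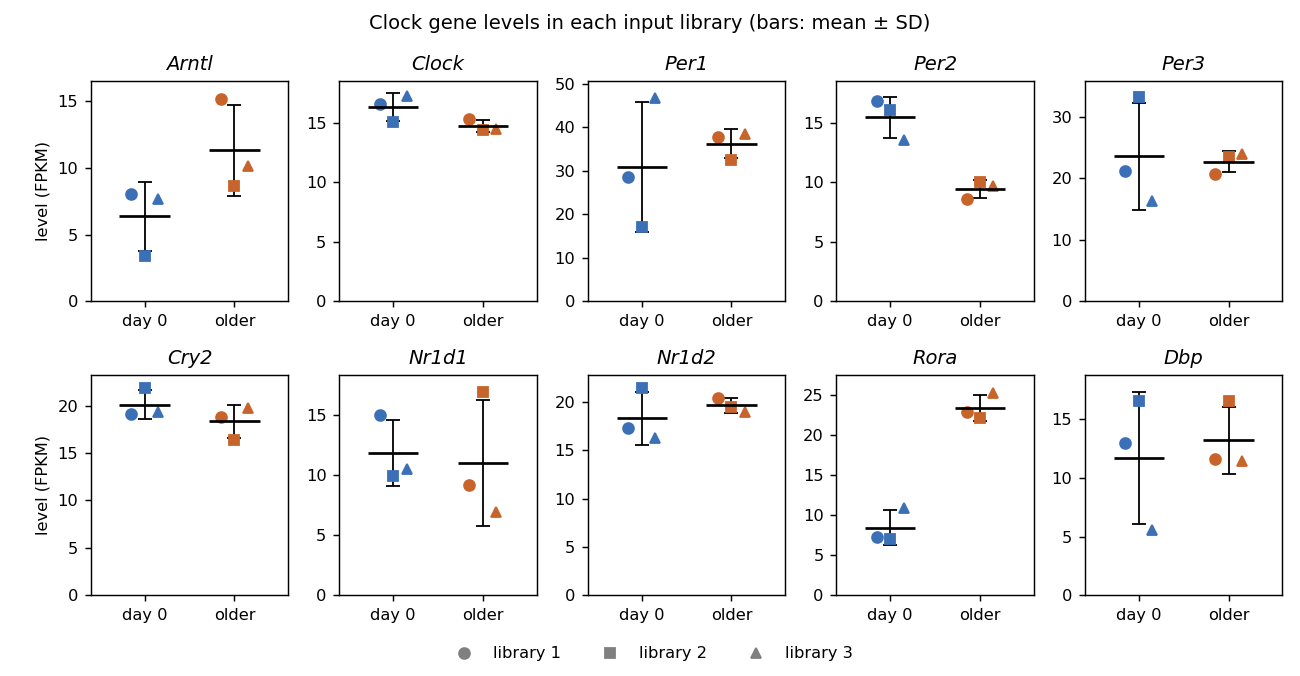
Level in FPKM (vertical axes from 0) of each clock gene in the 3 day 0 (blue) and 3 older (orange) input libraries, with the library number as the marker shape and mean ± SD as bars (n = 3). Rora at 22.2 to 25.3 FPKM in older hearts lies above its 7.02 to 10.96 FPKM at day 0, and Per2 lies lower in all older libraries.

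The activators Arntl and Clock differed in how they varied. Arntl, without which the loop does not run, stood at 8.06, 3.42 and 7.64 FPKM in the day 0 libraries 1, 2 and 3 and at 15.1, 8.63 and 10.1 FPKM in the older libraries. All older values lay above all day 0 values, but the highest day 0 and the lowest older library were close. The mean went from 6.37 ± 2.57 to 11.3 ± 3.40 FPKM (n = 3, SD; log2 fold change 0.78, 95% interval -0.01 to 1.56, limma adjusted p = 0.200). Without day 0 library 2, in which Arntl was lowest, the log2 fold change was 0.44. Clock, its partner, was among the steadiest genes of the set, at 16.6, 15.02 and 17.3 FPKM at day 0 and 15.3, 14.4 and 14.5 FPKM in older hearts. Its interval of -0.46 to 0.19 on the log2 scale ends short of a 2-fold change in either direction (limma adjusted p = 0.587). The ratio of Arntl to Clock levels per library was 0.486, 0.227 and 0.442 at day 0 and 0.987, 0.600 and 0.701 in older hearts, with no overlap.

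Among the repressors, Per2 was the member that fell. It stood at 16.8, 16.1 and 13.5 FPKM in the day 0 libraries and at 8.58, 10.01 and 9.67 FPKM in the older ones, and the ages were well apart. Its mean fell from 15.5 ± 1.73 to 9.42 ± 0.749 FPKM (n = 3, SD; log2 fold change -0.66, 95% interval -1.04 to -0.27, limma adjusted p = 0.0494). The call was close to the threshold: it held in 4 of 15 settings of the fit, with adjusted p from 0.00836 to 0.138, and was lost without any 1 library except day 0 library 3 (adjusted p = 0.0416 without that one). In the authors' deposited table Per2 has a log2 fold change of -0.60 and an adjusted p of 0.00940.

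Per1, a repressor gene that also answers to stress hormones and cAMP, had the highest mean of the 10 at both ages and a wide spread at day 0. It stood at 28.6, 17.01 and 46.6 FPKM at day 0 and 37.8, 32.4 and 38.3 FPKM in the older hearts. The older libraries lie inside the day 0 range (log2 fold change 0.34, 95% interval -0.41 to 1.08, limma adjusted p = 0.555). Without day 0 library 2 the log2 fold change was -0.017 and without day 0 library 3 it was 0.68. Per3, whose product is the least needed of the PER proteins for the loop in mice, ran the other way at day 0, at 21.1, 33.2 and 16.3 FPKM. In older hearts it held at 20.7, 23.4 and 23.9 FPKM, again inside the day 0 range (log2 fold change 0.00, 95% interval -0.57 to 0.58, limma adjusted p = 0.995). Cry2, a cryptochrome repressor, stood at 19.1, 21.9 and 19.3 FPKM at day 0 and 18.8, 16.4 and 19.8 FPKM in older hearts. Its ages overlapped and its interval was narrow, from -0.46 to 0.21 on the log2 scale (limma adjusted p = 0.619).

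Rora, the activator of the stabilising loop, carried the clearest difference of the set. It stood at 7.29, 7.02 and 10.96 FPKM in the day 0 libraries and at 22.9, 22.2 and 25.3 FPKM in the older libraries. Every older library was above every day 0 library, with a gap wider than the spread within either age. The mean rose 2.79 times, from 8.42 ± 2.20 to 23.5 ± 1.64 FPKM (n = 3, SD; log2 fold change 1.40, SE 0.20, 95% interval 0.94 to 1.86, limma adjusted p = 0.00730). It was called in all 15 settings of the fit, with log2 fold changes from 1.30 to 1.58 and adjusted p from 0.00145 to 0.0472. Without day 0 library 3, the library with lung and skeletal muscle markers, the log2 fold change was 1.58. The part of the fibroblast, endothelial and pericyte markers that changed over the same libraries was not tested. The authors' deposited table gives Rora a log2 fold change of 1.59 and an adjusted p of 7.63e-07.

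Its opponents Nr1d1 and Nr1d2, the REV-ERB repressors, did not pass the threshold. Nr1d1 stood at 14.9, 9.89 and 10.5 FPKM at day 0 and at 9.16, 16.9 and 6.89 FPKM in older hearts. The highest and the lowest of the 6 values are both in older hearts, so the ages overlap fully (log2 fold change -0.16, 95% interval -0.91 to 0.59, limma adjusted p = 0.797). Nr1d1 lies on the opposite strand to Thra, a thyroid hormone receptor gene, and their spans overlap in RefSeq. The counting strand is not given in the sources used here, so reads from the shared stretch cannot be told apart. The same holds for Per2, Clock and Cry2, whose RefSeq spans overlap long noncoding RNA genes on the opposite strand. The span of Rora overlaps 2 such genes on its own strand, over 235481 and 27564 bases, and reads from shared exons there could not be assigned by strand. None of these noncoding genes was found by its RefSeq symbol in the table. Thra averaged 88.6 ± 4.39 FPKM at day 0 and 99.99 ± 2.81 FPKM later (n = 3, SD; limma adjusted p = 0.291). Nr1d2 stood at 17.3, 21.4 and 16.2 FPKM at day 0 and 20.5, 19.5 and 18.97 FPKM in older hearts, with older values inside the day 0 range (log2 fold change 0.10, 95% interval -0.25 to 0.46, limma adjusted p = 0.707). The ratio of Rora to Nr1d1 levels per library was 0.488, 0.709 and 1.04 at day 0 and 2.50, 1.31 and 3.68 in older hearts, without overlap.

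Dbp, the output factor whose RNA swings widely over the day in adult rodent tissues, stood at 12.95, 16.6 and 5.59 FPKM at day 0 and 11.6, 16.5 and 11.5 FPKM in older hearts. Day 0 library 3 was lower than any other library, and the other 5 libraries overlapped between ages. The means were 11.7 ± 5.61 and 13.2 ± 2.88 FPKM (n = 3, SD; log2 fold change 0.26, 95% interval -0.60 to 1.11, limma adjusted p = 0.702), and the sign turned to -0.16 without day 0 library 3.

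Without day 0 library 3 the calls among the 10 clock genes were again Rora higher and Per2 lower (log2 fold changes 1.58 and -0.75). The log2 fold change was then 0.92 for Arntl, -0.09 for Clock, 0.68 for Per1, -0.22 for Per3, -0.16 for Cry2, -0.22 for Nr1d1, 0.03 for Nr1d2 and -0.16 for Dbp. Those of Per3 and Dbp had turned sign, and limma adjusted p of these 8 was 0.128 or more.

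**Figure D2:**
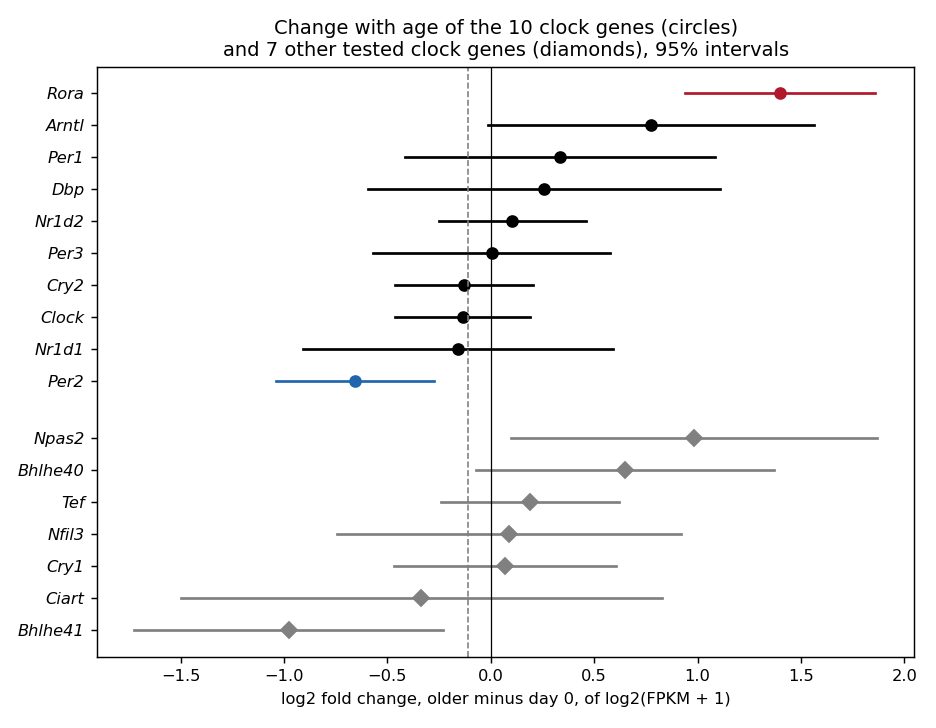
Log2 fold change (older minus day 0, horizontal axis) with its 95% interval for the 10 clock genes (circles) and 7 other tested clock genes (diamonds), with Rora in red as called higher, Per2 in blue as called lower and a dashed line at the median of all genes tested, -0.11. Most intervals span 0, and that of Rora runs from 0.94 to 1.86.

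The order of the levels shifted with these differences. At day 0 the order by mean FPKM was Per1 (30.7), Per3 (23.5), Cry2 (20.1), Nr1d2 (18.3), Clock (16.3), Per2 (15.5), Nr1d1 (11.8), Dbp (11.7), Rora (8.42) and Arntl (6.37), and every neighbouring pair overlapped between libraries. In older hearts Per1 (36.2) led, apart from Rora (23.5), which had moved from rank 9 to rank 2 and overlapped Per3 (22.7). Nr1d2 (19.6) lay apart below Per3 and overlapped Cry2 (18.3), and Clock (14.7) lay apart below Cry2. Dbp (13.2), Arntl (11.3), Nr1d1 (10.97) and Per2 (9.42) each overlapped their neighbours, with Per2 moving from rank 6 to rank 10.

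Within an age the clock genes did not vary alike, and 5 of them (Arntl, Per1, Per3, Nr1d1 and Dbp) had a library more than 0.5 from the mean of its age on the log2(FPKM + 1) scale. The share of all genes tested that had a library beyond 0.5 on that scale was not computed. On that scale day 0 library 2 was low in Arntl (-0.67) and Per1 (-0.71) and high in Per3 (0.54) and Dbp (0.58). Day 0 library 3 was high in Per1 (0.70) and low in Per3 (-0.44) and Dbp (-0.83). Library 2 thus held the lowest value of 5 clock genes and the highest of 4 at day 0. Over all 13117 genes tested it held the lowest day 0 value of 3850 and the highest of 4388. In older hearts library 2 was high in Nr1d1 (0.66) and Dbp (0.32) and low in Arntl (-0.32), whereas Per1 and Per3 deviated by at most 0.15 in size in any older library.

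**Figure D3:**
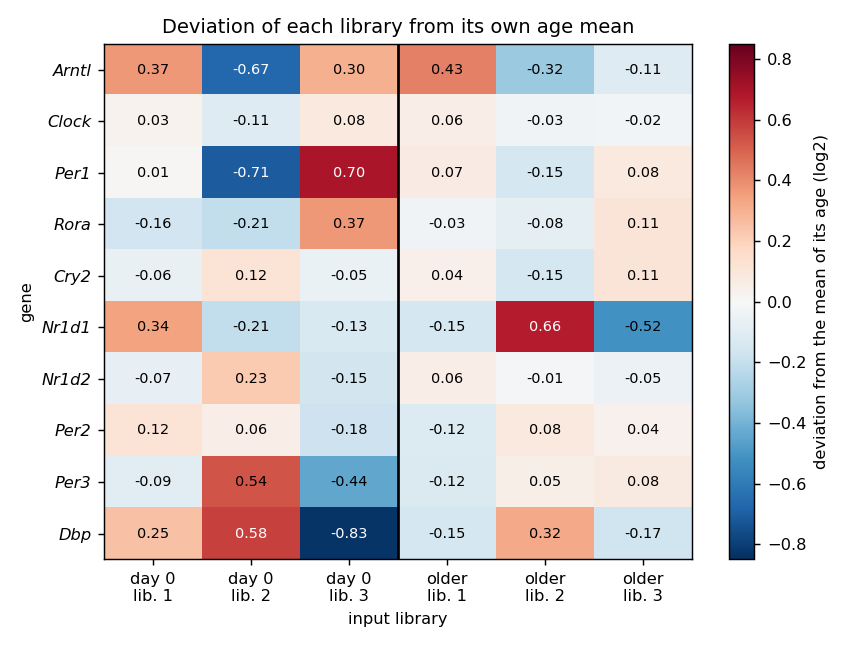
Deviation of each input library (columns) from the mean of its own age, in log2(FPKM + 1), for the 10 clock genes (rows), with red above and blue below the mean. Day 0 libraries 2 and 3 have opposite signs in every row but that of Nr1d1, Per1, Per3 and Dbp among them. The deviations of a gene within an age sum to 0, which by itself favours opposite signs. In older hearts the deviations over 0.3 in size are those of Nr1d1, Arntl and Dbp.

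Ratios between clock genes do not depend on the library total. The 8 computed varied 2.11-fold to 6.64-fold among day 0 libraries and 1.32-fold to 3.23-fold among older ones, and the ages overlapped in 4 of them. Arntl over Dbp was 0.622, 0.206 and 1.37 in the day 0 libraries, a 6.64-fold range, and 1.30, 0.522 and 0.885 in the older ones, a 2.49-fold range. Per1 over Per3 was 1.35, 0.513 and 2.86 at day 0, a 5.57-fold range, and 1.83, 1.38 and 1.60 in older hearts, a 1.32-fold range. Arntl over Nr1d1 was 0.540, 0.345 and 0.727 at day 0 and 1.65, 0.511 and 1.47 in older hearts. In these 3 ratios library 2 was lowest at both ages, and the ages overlapped, as they did for Per1 over Per2. Arntl over Per2 was 0.479, 0.213 and 0.565 at day 0 and 1.76, 0.862 and 1.049 in older hearts, without overlap. Npas2 over Clock, with Npas2 a relative of Clock, was 0.0859, 0.0612 and 0.192 at day 0 and 0.362, 0.281 and 0.256 in older hearts, also without overlap. Arntl over Clock and Rora over Nr1d1, given above, separated the ages too. In each ratio that separated the ages, the first gene (Arntl, Rora or Npas2) also did so by itself, with older hearts higher. Of all genes tested 12.2% did so in that direction and 32.5% in either. In Arntl over Per2 the second gene separated the ages as well, with older hearts lower, as 20.3% of all genes did. The pairs were picked, and the share of all gene pairs that separate the ages was not computed.

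**Figure D4:**
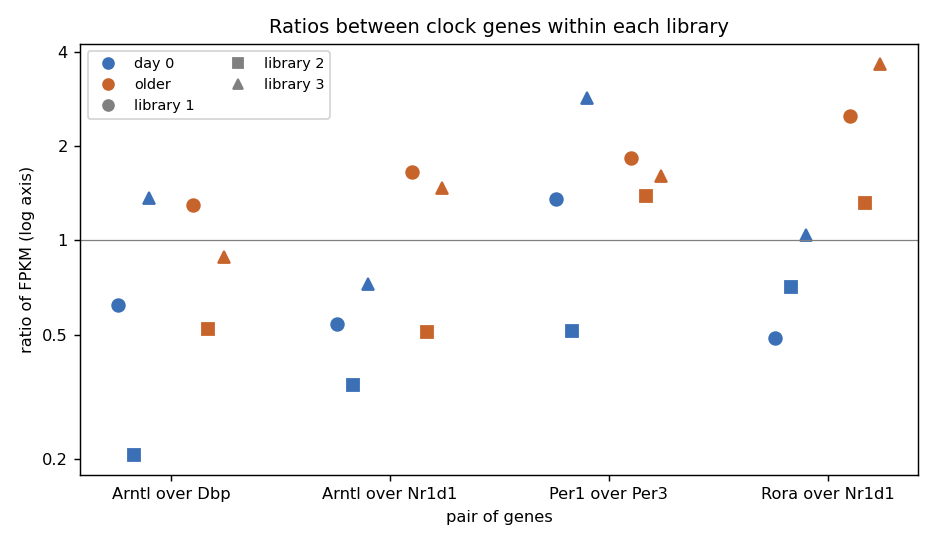
Ratio of the FPKM of 2 clock genes within each library (log axis) for day 0 (blue) and older hearts (orange), with the library number as the marker shape. Rora over Nr1d1 separates the ages, at most 1.04 against at least 1.31, and the other 3 ratios overlap.

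The SD over the 3 libraries of an age, on the log2(FPKM + 1) scale, measured this spread gene by gene. It was 0.74 for Dbp, 0.70 for Per1, 0.58 for Arntl and 0.50 for Per3 at day 0, and 0.10 for both Clock and Cry2. Among 4681 tested genes in the same range of mean level (8.84 to 33.5 FPKM) the median SD was 0.25 at day 0, and 6 of the 10 clock genes lay above it. In older hearts Nr1d1 (0.60), Arntl (0.38) and Dbp (0.28) were the 3 above the median of 0.19, and Per1 (0.13), Per3 (0.11) and Rora (0.10) were below it. The median SD of the 10 clock genes was 0.31 at day 0 and 0.12 in older hearts, and that of all genes tested was 0.31 and 0.23. The variance among day 0 libraries was 427 times that of counting alone for Per1 and 235 times for Per3, against a median of 18.5 times for the genes in that range, and it was 6.56 times for Cry2. At equal relative spread this multiple grows with the number of reads, and the genes were matched on FPKM, not on reads. Dbp, with 155 to 381 day 0 reads and the largest SD, had 71.2 times, whereas Per1 had 929 to 3077 day 0 reads. Amplified reads that carry no molecular identifiers do not stand for separate molecules, so the counting variance used here is a lower bound.

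**Figure D5:**
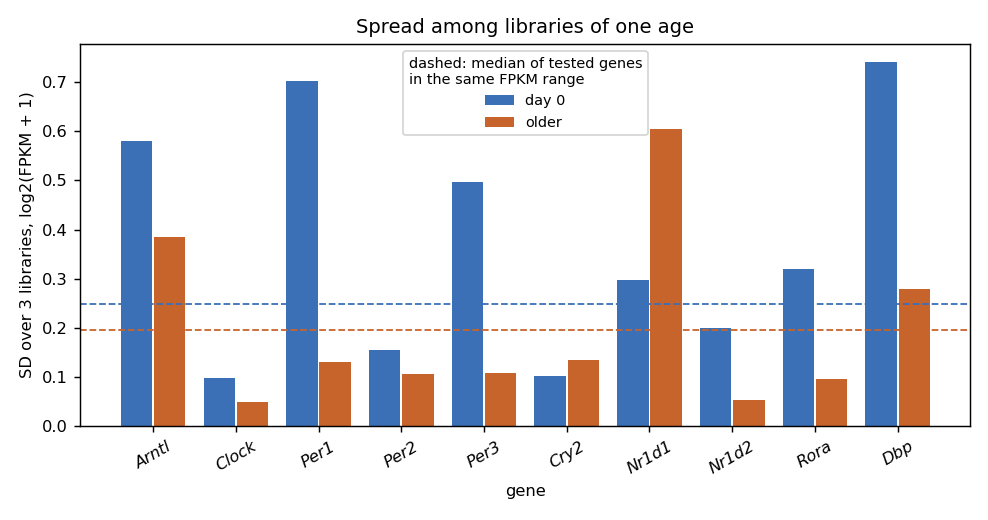
SD over 3 libraries of log2(FPKM + 1) for each clock gene at day 0 (blue bars) and in older hearts (orange bars), with dashed lines at the median of tested genes in the same FPKM range (0.25 and 0.19). Dbp and Per1 have the tallest day 0 bars and Nr1d1 the tallest older bar.

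Over the 6 libraries, the profile of Arntl was closest to that of Egfr, a growth factor receptor gene (root mean square difference 0.16 on the log2 scale after each gene was centred on its own mean), then to Slc25a38 and AABR07033023.1 (0.17 and 0.18). Nr1d1 was closest to Gar1, which encodes a small nucleolar RNA-binding protein (0.11), then to Gng12 and Pcbd2 (both 0.15). For Dbp the nearest were Ostf1 (0.10), Ccdc167 (0.12) and Pld3 (0.13). These are the closest 3 of 8999 genes that averaged 5 FPKM or more, over the same 6 libraries, 3 of each age, and no clock gene was among them.

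Other clock genes gave 0 calls in limma, against 9.26% of all genes. Of 11 listed, 10 were found and 7 tested, and at an unadjusted p under 0.05 there were 2, Npas2 and Bhlhe41, against 25.9% of all genes. Their median log2 fold change was 0.09, against -0.11 over all genes. Npas2, which can stand in for Clock as the partner of Arntl, stood at 1.43, 0.919 and 3.32 FPKM at day 0 and 5.55, 4.04 and 3.71 FPKM in older hearts, without overlap (log2 fold change 0.98, limma adjusted p = 0.153). Bhlhe41, an E-box repressor, stood at 6.07, 13.5 and 6.63 FPKM at day 0 and 4.43, 3.17 and 3.51 FPKM in older hearts, also without overlap (-0.98, limma adjusted p = 0.102). Its relative Bhlhe40 had 11.2 ± 3.87 and 18.2 ± 6.58 FPKM (n = 3, SD; limma adjusted p = 0.236).
Cry1, the other cryptochrome gene, was at 6.30 ± 1.38 and 6.61 ± 0.906 FPKM, and Tef, a relative of Dbp, at 13.9 ± 2.11 and 15.97 ± 2.40 FPKM (n = 3, SD). Nfil3, which opposes DBP at the D-box, was lowest at 3.67 FPKM in day 0 library 2 and highest at 10.4 FPKM in day 0 library 3, the opposite of Dbp in those libraries. The same order of these day 0 libraries was found in 18.5% of all genes tested, and a link to Dbp was not tested. Ciart, a repressor of the CLOCK pair, was at 0.324 FPKM in day 0 library 2 against 2.52 and 2.45 FPKM in the other day 0 libraries. Hlf, another relative of Dbp, lay below the filter and was listed at 0 in 3 of the 6 libraries.

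Genes whose products modify or assist clock proteins gave few calls. Of 25 tested, 2 fell and 0 rose, near the 5.73% and 3.52% of all genes, with a median log2 fold change of -0.10, and 9 had an unadjusted p under 0.05, against 25.9% of all genes. Btrc, a ubiquitin ligase subunit that marks PER proteins for breakdown, fell from 12.4 ± 0.483 to 7.10 ± 0.867 FPKM (n = 3, SD; log2 fold change -0.74, limma adjusted p = 0.0411). Nono, an RNA-binding partner of PER, fell from 144 ± 10.7 to 96.1 ± 10.4 FPKM (n = 3, SD; -0.58, limma adjusted p = 0.0244). The call of Btrc was lost without any 1 library and that of Nono without 5 of the 6 (limma adjusted p up to 0.117 and 0.0896), and neither was called after centring on the median gene (0.0727 and 0.0534).

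Genes described as clock outputs in the rodent heart changed in both directions. Of 18 tested, 7 rose and 3 fell, beside 3.52% and 5.73% of all genes, with a median log2 fold change of 0.27. In limma 14 of the 18 had an unadjusted p under 0.05, against 25.9% of all genes. Many of the listed genes are metabolic genes with other regulators, and the list was chosen with earlier results of these data known, Pdk4, Ucp3 and Cdkn1a among them. Nampt, which makes a precursor of NAD, rose from 7.81 ± 2.74 to 53.8 ± 6.23 FPKM (n = 3, SD; log2 fold change 2.69, limma adjusted p = 0.00189). Pdk4, the kinase that limits pyruvate use, stood at 104, 114 and 108 FPKM at day 0 and 462, 589 and 513 FPKM in older hearts. Kcnip2, a potassium channel subunit gene, was called higher (2.09, limma adjusted p = 0.0469) with 15.6 FPKM in older library 2 against 4.27 and 4.08 FPKM in the other older libraries. Klf15 (1.09, limma adjusted p = 0.0493) and Ucp3 (1.55, limma adjusted p = 0.0244) were called higher as well. Gys1, muscle glycogen synthase, fell from 32.1 ± 2.49 to 16.4 ± 1.47 FPKM (n = 3, SD; -0.93, limma adjusted p = 0.00872), and Bdh1 (-1.71) and Alas1 (-0.62) were called lower. The calls of Kcnip2, Ucp3 and Bdh1 were lost without any 1 library and those of Klf15 and Alas1 without 5 of the 6 (limma adjusted p up to 0.169), whereas Nampt, Pdk4 and Gys1 passed without any 1 library.

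Genes that follow stress hormones or handling are given beside Per1, which is one of them. Of 12 tested, 4 rose and 0 fell, beside 3.52% and 5.73% of all genes, with a median log2 fold change of 0.34. In limma 6 of the 12 had an unadjusted p under 0.05, against 25.9% of all genes. Those not called went both ways. Sik1 (-0.89, limma adjusted p = 0.0538) and Egr1 (-0.41) were lower without overlap of the ages, and Fkbp5 (-0.33) and Sgk1 (-0.25) had overlapping ages. Tsc22d3 (0.81), Dusp1 (0.34), Per1 (0.34) and Ier2 (0.04) had positive changes. Fos and Fosb averaged under 1 FPKM and were not tested. The count of calls was 1 without day 0 library 1, day 0 library 2, older library 2 or older library 3, and 2 without older library 1. Without day 0 library 3 there were 5 higher and 1 lower. Zbtb16 rose from 22.4 ± 8.16 to 87.5 ± 1.26 FPKM (n = 3, SD; log2 fold change 1.98, limma adjusted p = 0.00460). Klf9 rose by 1.49 (limma adjusted p = 0.0126, up to 0.0674 without 1 library), and Junb was called at 1.95 (limma adjusted p = 0.0277, up to 0.117 without 1 library). The other called gene, Cebpd (1.12), was named after its values were seen, and its limma adjusted p went up to 0.105 without 1 library. Of these 12 genes, 8 were highest of the day 0 libraries in library 3, against 36.9% of all genes tested. For 6 of them, Per1, Zbtb16 and Klf9 included, library 2 was also lowest, against 18.5% of all genes. The other 4, Junb, Cebpd, Egr1 and Sik1, were lowest of the day 0 libraries in library 3. These orders were looked at after the values were seen, and their part in the spread of Per1 was not tested.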

How the data were processed

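Input RNA of rat heart was compared between 2 ages, 3 libraries each. Ribosomal RNA was removed and cDNA made by SMART before PCR, per the labels' protocols. HISAT2, HOMER 4.10 and build rn5 appear, without roles, per the submitters' processing notes. Not given in the sources used here are the counter, the annotation and the test behind the authors' table. The deposited values are FPKM, with the authors' log2 fold change, p-value and adjusted p-value per gene, per the file headers. OD columns were taken as day 0, and 10D columns as the day 7 samples since no other age is in the labels.

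Whole reads were recovered from the FPKM for 100% of 16898 genes (relative tolerance 1e-10). Levels were tested on log2(FPKM + 1) with limma 3.58.1 in R 4.3.3 (mean-variance trend, Benjamini-Hochberg over 13117 genes averaging 1 FPKM or more, 3781 left out). On simulated reads for 16872 genes the recovery returned all 6 library totals and the reads of 96.7% of genes, and those of 100% up to a factor shared by a gene's libraries. In a simulation of older against day 0 over 12985 genes, limma called 28 of 98 genes changed by 1 on the log2 scale, 95 of 96 changed by 2, and 9 unchanged genes. It gave every gene the same spread beyond counting (dispersion 0.05) and changed few genes, so these shares do not carry over to the data. Alternatives changed the pseudocount, filter, scaling, trend, block, libraries and model (limma-voom on the recovered reads). Since the labels do not state separate animals, a p-value here reflects only how these libraries varied, possibly for technical reasons.

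The members, lists, named genes and tests were chosen with earlier results of these data known. Named were all 10 clock genes, up to 3 called genes at either end of each list, and a set of clock and output genes given whatever their result. Of genes sharing a symbol, that with the highest mean was used.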

Additional observations from a re-analysis of the deposited data

How the results depend on the processing

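Rora was called in all 15 settings of the fit, the main one included. Of the 10 clock genes 2 were called in the main setting and with a minimum mean of 5 FPKM or limma-voom. With a pseudocount of 0.1, no filter, centring on the median gene, quantile normalization, the replicate block or no mean-variance trend, 1 was called, Rora, and Per2 had limma adjusted p from 0.0515 to 0.121. Leaving out 1 library gave 1 to 2. Over all genes tested the library numbers showed no pairing of the samples. Deviations from the age mean in same-numbered libraries correlated at -0.04, -0.00 and -0.05 over 13117 genes. A pairing that acts on fewer genes was not tested. With the replicate block 501 genes were called instead of 1214, 4 clock outputs instead of 10 and 0 clock protein regulators instead of 2. Over all genes 669 were called without the trend, 1831 by limma-voom and 363 to 1130 with 1 library left out. The main split of 462 higher and 752 lower became 617 and 464 after centring and 620 and 479 after quantile normalization. Clock protein regulators had 1 call without the filter, 0 after centring, after quantile normalization or without the trend, 4 by limma-voom and 0 to 1 with 1 library left out. Clock outputs had 6 calls without the filter, 5 without the trend and 4 to 8 with 1 library left out, and acute response genes 1 to 6. Log2 fold changes that turned sign did so only with 1 library left out, within -0.017 to 0.68 for Per1, -0.22 to 0.27 for Per3, -0.49 to 0.10 for Nr1d1, -0.16 to 0.55 for Dbp, -0.070 to 0.20 for Cry1 and -0.24 to 0.40 for Nfil3, none of them called. Over the log2 fold changes of named genes, 320 comparisons with an alternative kept direction and side of the threshold, 84 lost the call and 11 turned sign. The counts of motif matches were as in the whole window when only the 250 bases before the start were searched. Where a call was lost, the cause was not tested. Arntl held 137 to 714 reads per library, which limits how precisely its level is known.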
